A study of Malus domestica with 15 samples.

Results

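Transcript levels in apple skin were compared between fruit treated with 1-methylcyclopropene (1-MCP) and untreated control fruit, both sampled after 2 months in the cold and a further 7 days on the shelf. Of the 80965 loci in the deposited table, 42287 (52.2%) were analysed. These were the loci with a mean of at least 1 FPKM over the groups and no value of 0. FPKM relates the fragments of a locus to its length and to all mapped fragments, so that levels can be compared between loci. The treated fruit, as the fruit given 1-MCP are called below, had been exposed to 0.7 µl/L of 1-MCP (final concentration) and the control fruit to none. The other groups of the series were treated fruit and control fruit taken straight from the cold after the same 2 months, and untreated fruit at harvest. All are from Malus domestica skin, and the labels name neither the cultivar nor the storage temperature. The labels list 3 biological replicates for each of the 5 groups, 15 samples in all, but the table gives 1 FPKM value per group. The spread between replicates is therefore unknown, and every difference below stands without an error, a p-value or a replicate check.

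Ethylene is the gaseous hormone that drives ripening in climacteric fruit such as apple. 1-MCP is a gas that occupies the ethylene receptors, so that the fruit no longer perceives the hormone, and growers use it to keep stored apples firm. It also protects stored fruit against superficial scald, a browning of the skin that forms in the cold and typically becomes visible after transfer to shelf conditions, and the series title names this resistance as its subject. The comparison after shelf life asks which skin transcripts differ once treated and control fruit have left the cold.

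Loci are known here by identifier alone. CUFF numbers are loci assembled from the reads, and MDP numbers are apple gene models. Of the 63541 gene models, 0 matched the apple genes that RefSeq lists for assembly GDT2T_hap1, so no gene could be given a name, a role or a sequence, and the lists of ethylene, cell wall, terpene and phenolic genes and of skin cell markers could not be filled. A bulk value also cannot separate fewer cells of one type from less RNA per cell. The rule on the mean was applied at 1 FPKM. The locus just inside it had 1.23 FPKM in treated fruit and 1.01 FPKM in control fruit after shelf life, and the locus just outside it had 1.49 FPKM in treated fruit and 0.516 FPKM in control fruit.

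With the values as deposited, more loci were higher than lower in treated fruit, but the lower ones differed by more. With a locus called different at a difference of at least 1 in log2(FPKM + 1), 6178 loci (14.6%) were higher and 3110 (7.35%) lower, together 22.0% of those analysed. The median log2 difference was 1.39 among the higher loci and -1.77 among the lower. These 2 medians were not recomputed with the scalings below. At a size of at least 2 there were 1182 higher and 1298 lower loci, and at a size of at least 4 there were 92 higher (0.218% of the loci) and 316 lower (0.747%). The excess of lower loci among these extreme differences was present with each scaling tried, with 82 higher and 368 lower after 75th percentile scaling, 71 and 398 after trimmed mean scaling, and 72 and 353 after quantile normalization. The excess of higher loci at the size of 1 was absent with trimmed mean scaling. All loci together had a median log2 difference of 0.28, and trimmed mean scaling, which brought this median to 0.01, gave 3949 higher and 4392 lower loci. After 75th percentile scaling the counts were 4856 higher and 3749 lower, and after quantile normalization 4082 and 3935.

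**Figure D1:**
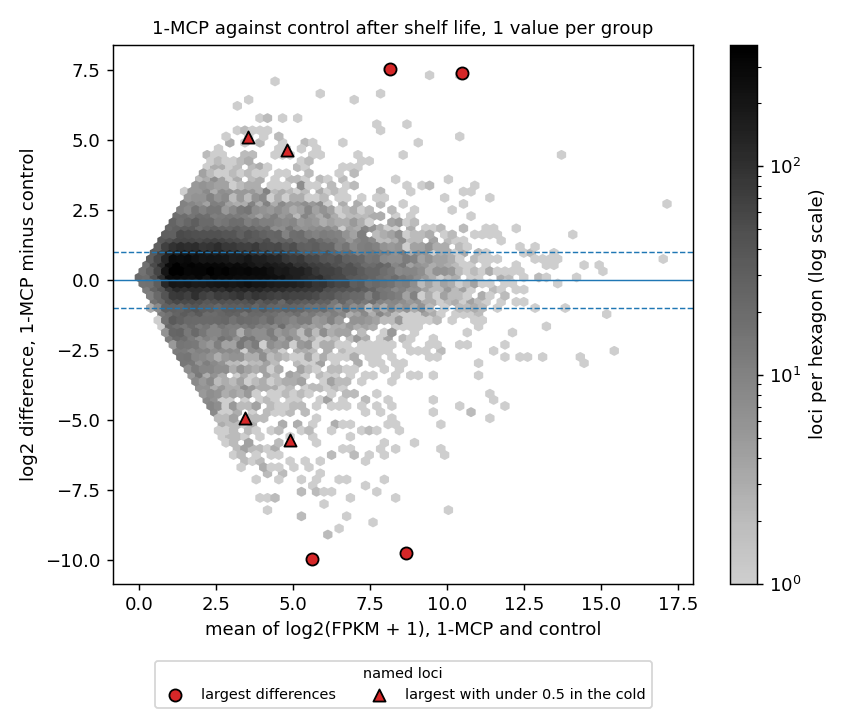
Log2 difference (1-MCP minus control, vertical axis) against the mean log2(FPKM + 1) of the same groups (horizontal axis) for 42287 loci after shelf life, shaded by the number of loci per hexagon. Dashed lines mark a difference of 1 in either direction and red symbols the 8 named loci; the cloud is centred slightly above 0, and its lower side reaches -9.97 while its upper side reaches 7.54.

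The largest difference in favour of treated fruit was at CUFF.45372, which carries gene model MDP0000670959. It stood at 3891 FPKM in treated fruit and at 19.9 FPKM in control fruit after shelf life. At the end of cold storage it had been at 2320 FPKM in treated fruit and 1355 FPKM in control fruit, and at harvest at 2306 FPKM. The only low value of this abundant transcript was thus that of control fruit after shelf life, and the log2 difference was 7.54 after shelf life, against 0.78 in the cold.

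MDP0000362190, a gene model without an assembled locus, had the next largest difference and a profile of the same shape at a higher level. It was listed at 18576.5 FPKM in treated fruit and at 109 FPKM in control fruit after shelf life. In the cold the values were 10616 FPKM in treated and 4470 FPKM in control fruit, and at harvest the value was 9726 FPKM. Here too the control fruit stood apart after shelf life (log2 difference 7.40) far more than in the cold (1.25).

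In the other direction, CUFF.37091 (gene models MDP0000301606 and MDP0000356099) had 0.562 FPKM in treated fruit and 1569 FPKM in control fruit after shelf life (log2 difference -9.97). In the cold it had been at 0.870 FPKM in treated and 17.1 FPKM in control fruit (-3.27), and at harvest at 1.59 FPKM. The transcript was thus under 2 FPKM at harvest and in both treated groups, and only control fruit after shelf life held it above 1000 FPKM. MDP0000206473 had 12.7 FPKM in treated fruit and 11918 FPKM in control fruit after shelf life (-9.76). Its cold-storage values were 31.5 FPKM in treated and 1031 FPKM in control fruit (-4.99), and its harvest value was 29.0 FPKM.

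**Figure D2:**
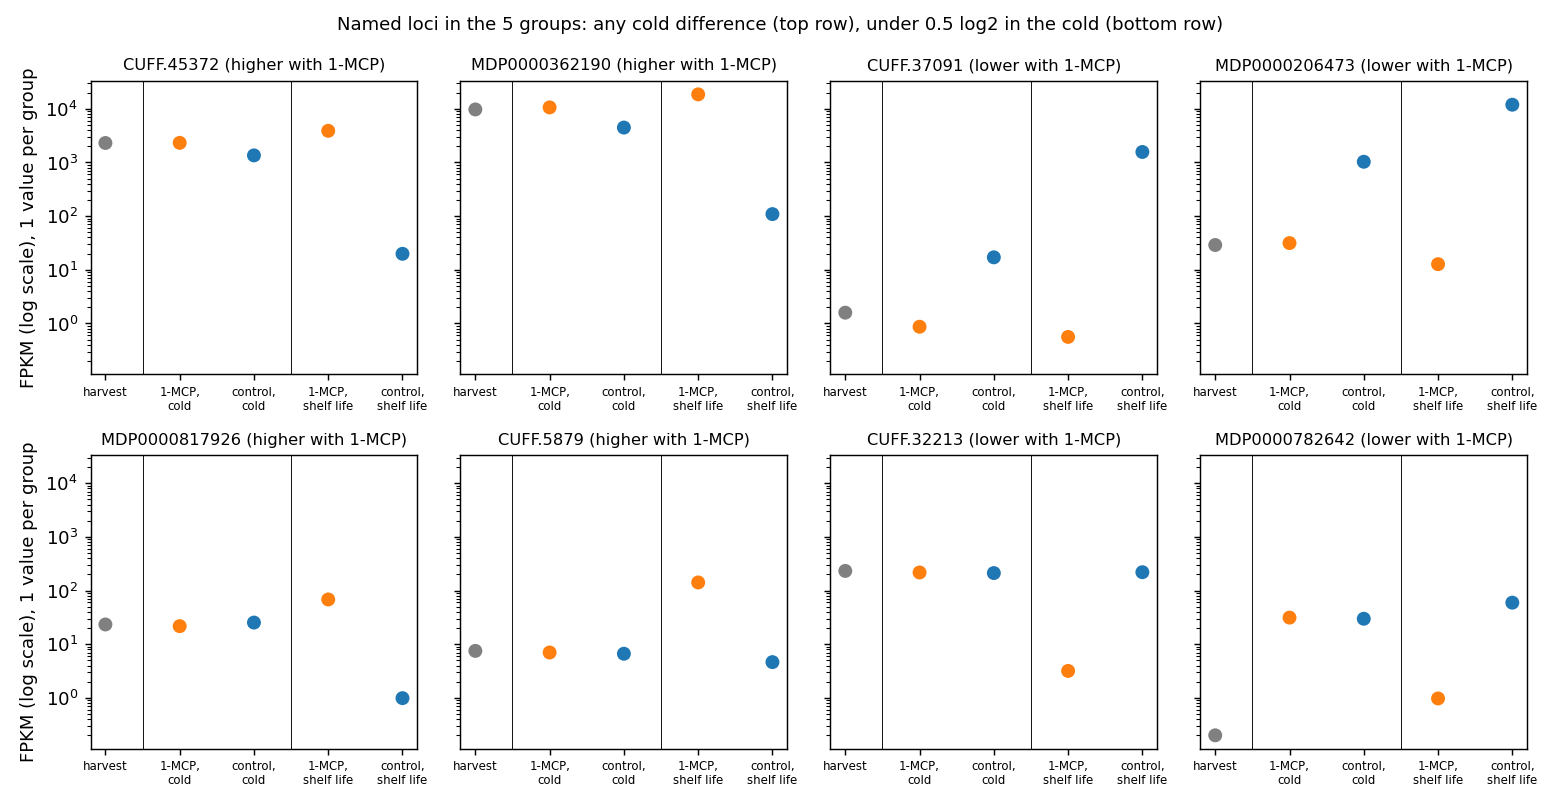
FPKM (log axis, 1 value per group) of the 8 named loci at harvest (grey) and in 1-MCP (orange) and control fruit (blue) from the cold and from the shelf. In the top row the blue shelf-life point lies far from the other values; in the bottom row the cold-storage points of the treatments nearly coincide and part after shelf life, CUFF.5879 for example standing at 141 FPKM in treated and 4.64 FPKM in control fruit.

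The 20 largest differences in each direction were taken among the 28676 loci at 5 FPKM or more in either shelf-life group. Their harvest medians lay apart but the harvest ranges overlapped, at 5.17 to 9726 FPKM for the higher and 0.132 to 250 FPKM for the lower loci. The 20 higher loci ranged over 69.8 to 18576.5 FPKM in treated fruit after shelf life, with a median of 262 FPKM, and over 0.0840 to 109 FPKM in control fruit, with a median of 3.31 FPKM. Of them 12 stood at 100 FPKM or more at harvest, where their median was 329 FPKM, so most were already abundant before storage. Of all 28676 loci, 10.8% reached that level at harvest. Differences this large need a high level in treated fruit, and loci of like level were not compared. The harvest shares are therefore only a description. Among the 20 higher loci, 2 were under 10 FPKM at harvest. The 20 lower loci ranged over 0.114 to 61.1 FPKM in treated fruit, with a median of 2.45 FPKM, and over 239 to 17240 FPKM in control fruit, with a median of 1570 FPKM. Of them 14 were under 10 FPKM and 2 at 100 FPKM or more at harvest, where their median was 3.59 FPKM. Of the 28676 loci 30.3% were under 10 FPKM at harvest, and the median was 17.5 FPKM.

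Gene models without an assembled locus made up 5 of the 20 higher loci and 15 of the 20 lower ones, against 15.1% of the 28676 loci. Assembled loci with a gene model were 13 of the higher and 3 of the lower ones, against 59.5%. A pair among the lower loci, MDP0000619608 and MDP0000326576, singled out after their values were seen, had nearly the same values in all 5 groups, with 0.900 and 0.910 FPKM in treated fruit and 698 and 697 FPKM in control fruit after shelf life. Whether such loci share reads is not known from the table, so their values are uncertain. Of the 316 loci lower by at least 4, 16 (5.06%) had such a partner, with every value within 5%, and of the 92 higher by at least 4, 2 (2.17%) did. Over all analysed loci the share was 7.01%, and over the loci with a mean of at least 100 FPKM it was 2.71%.

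Levels of the called loci in the 3 groups that the call did not use differed by direction. The 6178 higher loci had a median of 12.6 FPKM in treated fruit and 3.38 FPKM in control fruit after shelf life. At the end of cold storage their medians were 12.9 FPKM in treated and 5.53 FPKM in control fruit, and at harvest the median was 11.9 FPKM. The 3110 lower loci had a median of 3.21 FPKM in treated fruit and 19.3 FPKM in control fruit after shelf life. In the cold their medians were 4.25 FPKM in treated and 15.7 FPKM in control fruit, and at harvest the median was 7.83 FPKM. For the higher loci the harvest median was thus close to those of treated fruit, whereas for the lower loci it lay between those of the treatments.

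At the largest differences the levels of control fruit stood further out. The 92 loci higher by at least 4 had median levels of 109 FPKM in treated fruit and 2.04 FPKM in control fruit after shelf life, 85.0 FPKM in treated and 9.44 FPKM in control fruit in the cold, and 107 FPKM at harvest. The 316 loci lower by at least 4 had medians of 1.43 FPKM in treated fruit and 117 FPKM in control fruit after shelf life, 3.01 FPKM in treated and 63.3 FPKM in control fruit in the cold, and 5.32 FPKM at harvest. In both sets the level in control fruit was further from harvest than the level in treated fruit, at each time.

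**Figure D3:**
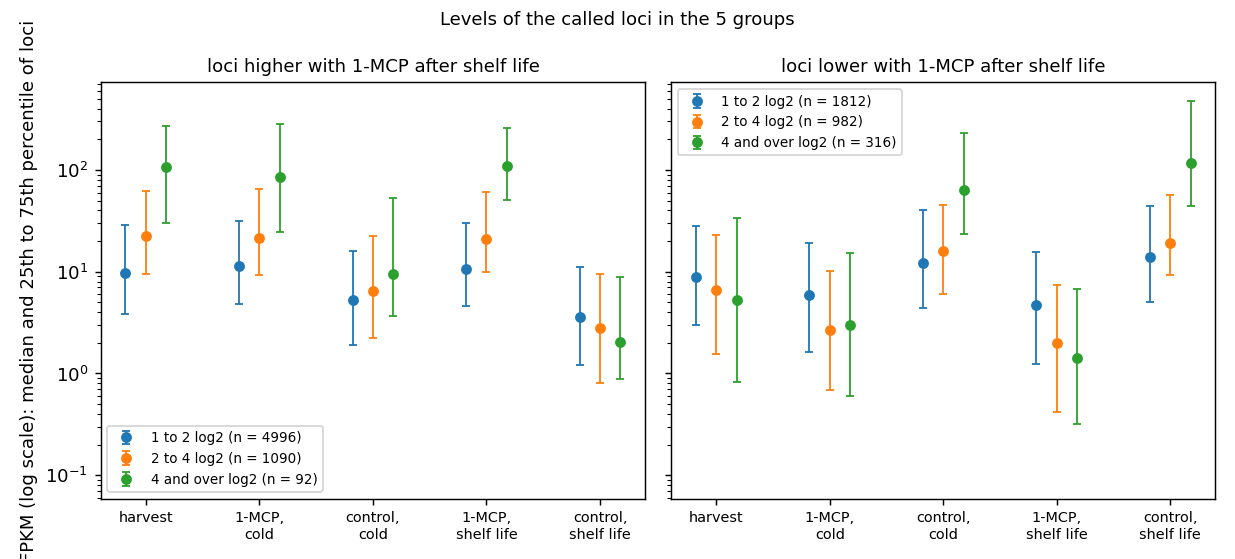
FPKM (log axis) of the loci higher (left) and lower (right) in treated fruit after shelf life, in the 5 groups, by size of the log2 difference; points are medians over loci and bars run from the 25th to the 75th percentile of loci, not an error between fruit. The loci higher by at least 4 stand near 100 FPKM in all groups except control fruit, and those lower by at least 4 stand near 5 FPKM at harvest and at 63.3 and 117 FPKM in control fruit.

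Locus by locus, the harvest level of the higher loci was nearer to treated fruit than to control fruit after shelf life at 4443 of 6178 loci (71.9%). Among the 3110 lower loci this was so for 1819 (58.5%), and among the loci called in neither direction for 58.7%. After trimmed mean scaling the shares were 69.3% of the higher, 65.3% of the lower and 53.7% of the other loci. At the lower loci the share was close to that of the uncalled loci as deposited and exceeded it after scaling, so its reading depends on the scaling. In treated fruit 913 of the 3110 lower loci were under 1 FPKM, and in control fruit 1422 of the 6178 higher loci were. In the group where they were high, 701 higher and 592 lower loci reached 100 FPKM. These counts use the groups that made the call, and the shares over all loci were not computed, so they are only a description.

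The larger the difference after shelf life, the more often it was already present in the cold, and this was clearest for the lower loci. The difference between treatments at the end of cold storage shares no column with that after shelf life. Of the loci higher by 1 to 2 after shelf life, 44.2% were higher by at least 1 in the cold, as were 70.2% of those higher by 2 to 4 and 83.7% of the 92 higher by at least 4. Over all analysed loci the share higher in the cold was 12.6%. Of the loci lower by 1 to 2, 47.5% were lower by at least 1 in the cold, as were 80.8% of those lower by 2 to 4 and 95.9% (303) of the 316 lower by at least 4, against 6.86% of all loci. An opposite difference of at least 1 in the cold was found at 4 of the 92 and at 0 of the 316. Across the size classes the higher loci had medians of 10.6, 21.0 and 109 FPKM in treated fruit after shelf life. The lower loci had medians of 13.9, 19.0 and 117 FPKM in control fruit. Loci of like level were not compared, so size and level cannot be told apart here.

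**Figure D4:**
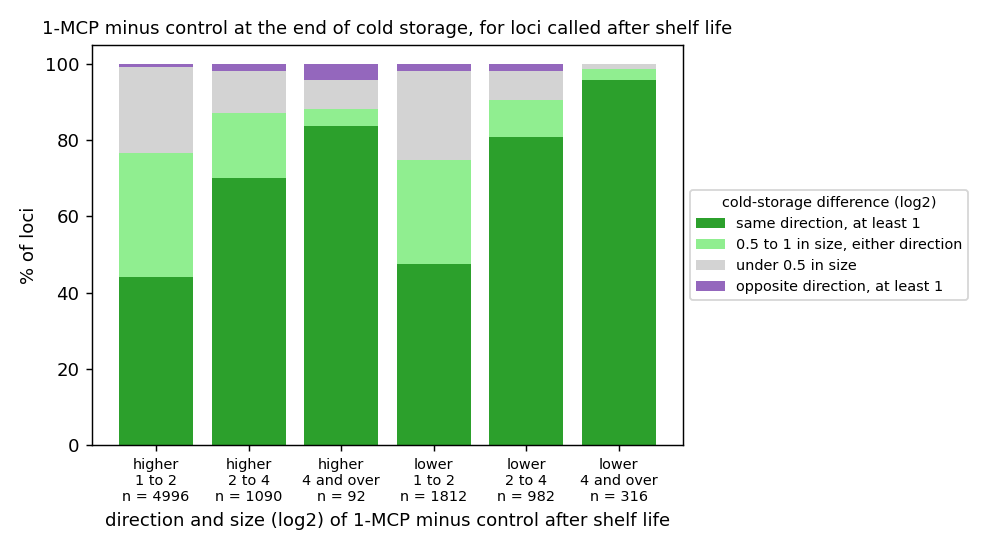
Share of loci (%) by their 1-MCP minus control difference at the end of cold storage, for loci called higher or lower after shelf life and split by the size of that call (log2). The green part, a difference of at least 1 in the same direction, grows from 44.2% to 83.7% among higher loci and from 47.5% to 95.9% among lower loci.

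A smaller set of loci differed after shelf life although the treatments had been alike in the cold. Among the 23695 loci (56.0%) whose cold-storage values differed by less than 0.5 log2 units, 1263 (5.33%) were higher and 504 (2.13%) lower in treated fruit after shelf life, together 7.46%. These were 20.4% of all higher and 16.2% of all lower loci. Most differences were modest, with 129 of the 1263 and 80 of the 504 at 2 or more. After trimmed mean scaling there were 874 higher and 770 lower loci, so the higher ones stayed the more numerous by a smaller margin.

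As deposited, the shift during shelf life at the late-differing higher loci was larger in control fruit more often than over all loci. At the late-differing lower loci it was not. These shifts share a column with the call and are given as a description. The 1263 higher loci had a median of 12.8 FPKM in treated fruit and 4.17 FPKM in control fruit after shelf life, against 11.6 FPKM in treated and 9.92 FPKM in control fruit in the cold. Between the end of cold storage and the end of shelf life their median log2 difference was 0.21 in treated fruit and -0.90 in control fruit, and the control shift was the larger at 950 loci (75.2%). The 504 lower loci had a median of 4.52 FPKM in treated fruit and 14.8 FPKM in control fruit after shelf life, against 7.80 FPKM in treated and 8.84 FPKM in control fruit in the cold. Their median shift was -0.47 in treated fruit and 0.81 in control fruit, with the larger one in control fruit at 302 loci (59.9%). Over all 23695 loci the median shifts were -0.11 with 1-MCP and -0.24 without. The shift was larger in control fruit at 63.7% of them, so the share at the lower loci was below that of all loci. A general fall in control fruit adds to its falls at higher loci and takes from its rises at lower ones. The contrast between directions may therefore depend on the scaling, which was not tested for these shifts.

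Single loci of this set showed different courses. MDP0000817926 was at 68.2 FPKM in treated fruit and 0.989 FPKM in control fruit after shelf life (log2 difference 5.12), having been at 21.7 FPKM in treated and 25.3 FPKM in control fruit in the cold, and at 23.3 FPKM at harvest. Its values thus parted in both directions. CUFF.5879, which carries MDP0000265899, was at 141 FPKM in treated fruit and 4.64 FPKM in control fruit after shelf life (4.66). It had been at 7.00 FPKM in treated and 6.65 FPKM in control fruit in the cold, and at 7.51 FPKM at harvest, so that the high value was that of treated fruit on the shelf.

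CUFF.32213, which carries MDP0000332265 and MDP0000298623, was at 3.18 FPKM in treated fruit and 220 FPKM in control fruit after shelf life (-5.72). All its other values were close to that of control fruit, with 217 FPKM in treated fruit and 212 FPKM in control fruit in the cold and 232 FPKM at harvest. MDP0000782642 was at 0.975 FPKM in treated fruit and 59.5 FPKM in control fruit after shelf life (-4.94), against 31.3 FPKM in treated and 29.8 FPKM in control fruit in the cold. Its harvest value, 0.201 FPKM, was the lowest of the 5. At 2 of the 4 loci with the largest late differences, CUFF.5879 and CUFF.32213, it was thus the 1-MCP value that left the level of the other groups.

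The share of loci that differed was larger in the classes of higher mean FPKM. That mean includes both groups compared, so a locus can reach a high class only through the group where it is high. It was 20.3% among loci with a mean of 1 to 10 FPKM over the 5 groups, 22.5% at 10 to 100 FPKM, 30.7% at 100 to 1000 FPKM and 43.2% among the 250 loci at 1000 FPKM or more. The pseudocount of 1 damps differences of scarce loci, and with 0.1 in its place the lowest class had 34.8% and the other classes 24.1%, 30.9% and 43.2%. The place of the lowest class therefore depended on the pseudocount. The rise over the 3 upper classes was present with both, but at those levels the pseudocount has little effect, so this is a weak check. Assembled loci without a gene model did not share the last step. Of them 35.8% differed at 100 to 1000 FPKM and 28.3% of 53 at 1000 FPKM or more. The 250 most abundant loci were split nearly evenly as deposited, with 55 higher and 53 lower. The split turned with the scaling, to 44 higher and 73 lower after trimmed mean scaling and to 62 higher and 45 lower after quantile normalization.

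Gene models without an assembled locus differed most often. Of 6801 such loci, 1232 (18.1%) were higher and 1162 (17.1%) lower in treated fruit, against 2613 (11.1%) higher and 1375 (5.85%) lower among 23509 assembled loci with a gene model. The 11977 unannotated assembled loci leaned most to one side, with 2333 (19.5%) higher and 573 (4.78%) lower. The kinds kept this order of how often they differed in each class of abundance below 1000 FPKM. Among loci at 10 to 100 FPKM, 38.2% of gene models without an assembled locus differed, 28.3% of unannotated loci and 16.7% of assembled loci with a gene model. Unannotated loci kept their excess of higher loci with trimmed mean scaling (1412 higher, 879 lower), but the other kinds did not (1619 higher and 2088 lower assembled loci with a gene model, 918 higher and 1425 lower gene models without an assembled locus). Of the 531 analysed loci that carried several gene models, 68 (12.8%) were higher and 55 (10.4%) lower, against 14.6% and 7.35% of all loci.

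**Figure D5:**
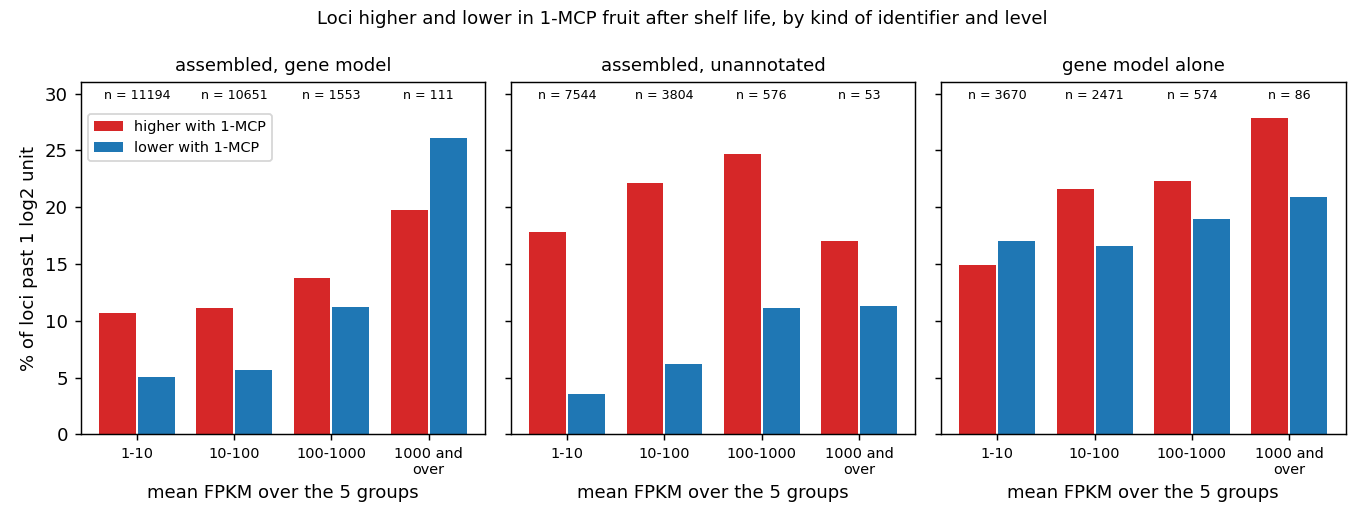
Share of loci (%) higher (red) or lower (blue) by at least 1 log2 unit in treated fruit after shelf life, for the 3 kinds of locus and 4 classes of mean FPKM, with the number of loci above each class. Gene models without an assembled locus (right) have both bars near or above 15% in each class, and unannotated loci (middle) have the widest gap between bars below 1000 FPKM.

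As deposited, the loci of each direction held a similar part of the summed FPKM where they were high, and 1 locus made up much of the higher part. The higher loci held 36.2% of the sum over analysed loci in treated fruit and 8.73% in control fruit. The lower loci held 6.28% of the sum in treated fruit and 36.2% in control fruit. A single locus, CUFF.37547 with gene model MDP0000243585, named for its level after its values were seen, made up 13.3% of the sum in treated fruit. It was at 364444 FPKM in treated fruit and 57601 FPKM in control fruit after shelf life (log2 difference 2.66), against 68088 FPKM in treated and 70322 FPKM in control fruit in the cold and 85225 FPKM at harvest. With its own share set aside but still counted in the sum, the higher loci held 22.9% in treated fruit and 6.45% in control fruit. No locus was set aside from the lower loci, so this is not an even comparison with their 36.2% in control fruit. Of the lower loci, MDP0000360438 alone, at 107937 FPKM, held 4.27% of the sum in control fruit. FPKM is relative to the mapped fragments of a group, and the part of this locus in the counts above was not tested.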

How the data were processed

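Per the labels' protocols, RNA from apple skin was made into non-directional TruSeq libraries, so antisense reads cannot be separated from those of a gene. The submitters' processing notes name TopHat2, Cufflinks and Cuffdiff. The sources used here give no tool version, genome build or annotation. The deposited values have 1 column per group and decimal commas. The column headers name FPKM for each group except treated fruit after shelf life, whose header names the group alone. Its values were taken as FPKM too. The authors' handling of the 3 replicates of a group is not stated, and library depth is unknown. Group columns were matched to the sample titles, and 0 value columns were left unmatched.

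Of 43129 loci with a mean of at least 1 FPKM, 842 with a 0 in any group were set apart, because such a 0 can be a failed estimate. Differences of log2(FPKM + 1), 1-MCP minus control, were computed with Python 3.11.15, numpy 2.4.6 and pandas 2.3.3, and called at a size of at least 1, with no test. The calling and scaling steps were tested on simulated data in which few loci changed, equally many in each direction. The real data had many differences, unequally split as deposited, so the simulation does not decide between the scalings. Members, lists and rules were chosen with earlier results of these data known. Named loci are the 2 furthest above and the 2 furthest below 0 in their difference among loci at 5 FPKM or more in either shelf-life group, and the same among those with a cold-storage difference under 0.5. The gene lists could not be filled. Alternatives were 3 scalings (75th percentile, trimmed mean with 30% trimmed at each end, quantile), pseudocounts of 0.1 and 5, other filters and other sizes.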

Additional observations from a re-analysis of the deposited data

Results flagged for a closer look

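The difference between 1-MCP and control fruit had opposite directions at the 2 sampling times for a small number of loci, each past 1 log2 unit at both times. Of the loci higher with 1-MCP after shelf life, 62 (1.00%) had been lower with it in the cold, against 6.86% of all loci. Of those lower after shelf life, 51 (1.64%) had been higher with it in the cold, against 12.6% of all loci. With 1 value per group, the difference between the times was not tested.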

How the results depend on the processing

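No paired analysis was possible because replicates have no columns of their own, and no replicate could be left out. With trimmed mean scaling 3949 loci were higher in 1-MCP fruit after shelf life and with quantile normalization 4082, against 6178 of 42287 as deposited. With only loci that carry a gene model, 3845 of 30310 were higher. That count is smaller because loci were left out. The share of higher loci among those called was 66.5% as deposited, 56.4% with 75th percentile scaling, 47.3% with trimmed mean scaling and 50.9% with quantile normalization. A pseudocount of 5 gave 4678 loci in all, 2723 higher, 1955 lower and 933 that differed after shelf life alone. A size of at least 2 gave 2480, 1182, 1298 and 209 in the same order. A size of at least 4, tried later with the data in view, gave 408, 92, 316 and 11. Those losses follow from the construction. Limits of 0.25 and 1 on the cold-storage difference, also added later, gave 780 and 4167 late-differing loci, against 1767. The median log2 difference turned to -0.036 for assembled loci with a gene model under trimmed mean scaling, and to -0.100 and -0.058 for gene models without an assembled locus under trimmed mean scaling and quantile normalization; the cause was not tested. No gene model was in more than 1 row (0), so leaving out repeats removed nothing. Of 56 counts recomputed, 39 stayed within 1.5 times the reported one. The 39 include the counts with repeats left out, which could not change. A larger size could only lower the counts, so the tally is not a measure of stability. Of 40 differences of named loci 8 moved by more than 1.5-fold, all under another pseudocount. None (0) changed sign, but this is no check. A pseudocount cannot change a sign, and these loci were picked for their large differences. Depth is unknown, and so is the precision at low FPKM.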

Other observations

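The differences of assembled loci with neighbouring CUFF numbers correlated more closely where neither locus carried a gene model. Across 3735 pairs of unannotated loci with consecutive numbers, Pearson's r of the log2 difference was 0.36 and Spearman's rho 0.31. For 12201 pairs in which both carried a gene model, r was 0.07 and rho 0.06. For unannotated loci 2 numbers apart r was 0.16 (3266 pairs), and for those 5 apart it was 0.01 (3056 pairs). With trimmed mean scaling the first value was also 0.36. Pairs share libraries and are not independent, and whether numbers follow the genome is not stated in the sources used here. For 10587 pairs of 1 locus with and 1 without a gene model, r was 0.13. Of these pairs CUFF.22025 and CUFF.22026, singled out after their values were seen, were both among the 20 loci with the largest positive difference. The unannotated CUFF.22025 was at 138 FPKM in treated fruit and 1.42 FPKM in control fruit, and CUFF.22026, which carries a gene model, at 2123 FPKM in treated fruit and 20.8 FPKM in control fruit.

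Some abundant loci were left out because a group was listed at 0. Of the 842 loci set apart, 223 were listed at 0 in treated fruit alone of the shelf-life groups and 267 in control fruit alone. Of the first, 16 were at 100 FPKM or more in control fruit, and of the second, 21 were at 100 FPKM or more in treated fruit. CUFF.49227, chosen after its values were seen, was listed at 0 in treated fruit and stood at 68477 FPKM in control fruit after shelf life, with 76806 FPKM in treated and 76739 FPKM in control fruit in the cold, and 100273 FPKM at harvest. MDP0000285074, chosen likewise, was at 120570 FPKM in treated fruit and 14879 FPKM in control fruit after shelf life and was listed at 0 at harvest. After shelf life the 10 most abundant of the analysed loci held 29.4% of the summed FPKM in treated fruit and 21.7% in control fruit.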
